A study of Mus musculus with 24 samples.

Results

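The unfolded protein response (UPR) genes described here are *Hspa5*, *Ddit3*, *Atf4*, *Xbp1*, *Atf6*, *Herpud1*, *Dnajb9*, *Hsp90b1*, *Calr* and *Pdia4*. They were listed by name and not by a measured value, and the 10 make up a small part of the 39017 gene identifiers in the count table. RNA of spinal cord microglia was sequenced in 24 mouse libraries, 6 each from female *Kdm6a* conditional knockout (cKO), female wildtype (WT), male *Kdm6a* cKO and male WT mice. *Kdm6a* encodes a histone demethylase and lies on the X chromosome. Every library carried the treatment label EAE, for experimental autoimmune encephalomyelitis, a mouse model of multiple sclerosis, so cKO and WT were compared within the disease and no healthy animals were used. The series' text places the mice on a Tmem119-Cre:RiboTag background, in which the microglial *Tmem119* promoter drives Cre and a tagged ribosomal protein allows ribosome-bound RNA to be captured. The labels give the molecule as total RNA and do not say which fraction was sequenced, which part of *Kdm6a* was deleted, how old the mice were or whether each library came from its own animal, so p-values measure only the spread between these libraries. These are bulk measures, and fewer cells of a type cannot be told apart from less RNA per cell.

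The UPR adjusts the folding capacity of the endoplasmic reticulum (ER) to its load of secretory and membrane proteins. Misfolded protein in the ER lumen activates membrane sensors: IRE1, which splices *Xbp1* mRNA so that it encodes an active transcription factor, PERK, which phosphorylates eIF2alpha and raises the translation of *Atf4* mRNA, and ATF6, itself a transcription factor that is freed from the membrane by proteases. ATF6 and XBP1 act on genes for ER chaperones and for ER-associated degradation, whereas ATF4 acts on amino acid and stress genes, among them *Ddit3*, which encodes the transcription factor CHOP. Much of this regulation is by splicing, translation and cleavage, which counts per gene do not show.

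Chaperone genes are classic targets because their promoters carry an ER stress response element (ERSE), which reads CCAAT, 9 bases of any kind and CCACG, or its variant ERSE-II, which reads ATTGG, 1 base and CCACG. Both were searched on both strands in windows of 300 bases, 250 before and 50 after the RefSeq transcription start, in the GRCm38.p6 build. Of the 10 genes, 9 had such a window in the table used, all but *Atf6*. The 250 bases before the start of the 4 genes with a match are shown 5′ to 3′ along the gene's own strand, with the matched element in capitals. They lie at chr2:34771840-34772089 on the plus strand for *Hspa5*, chr8:84846932-84847181 on the minus strand for *Calr*, chr10:86705445-86705694 on the minus strand for *Hsp90b1* and chr8:94386179-94386428 on the plus strand for *Herpud1*.
Hspa5: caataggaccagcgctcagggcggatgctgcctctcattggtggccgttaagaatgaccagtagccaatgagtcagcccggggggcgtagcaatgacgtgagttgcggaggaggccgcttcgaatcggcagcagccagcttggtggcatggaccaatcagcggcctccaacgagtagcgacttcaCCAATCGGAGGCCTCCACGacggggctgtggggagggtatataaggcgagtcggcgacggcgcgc
Calr: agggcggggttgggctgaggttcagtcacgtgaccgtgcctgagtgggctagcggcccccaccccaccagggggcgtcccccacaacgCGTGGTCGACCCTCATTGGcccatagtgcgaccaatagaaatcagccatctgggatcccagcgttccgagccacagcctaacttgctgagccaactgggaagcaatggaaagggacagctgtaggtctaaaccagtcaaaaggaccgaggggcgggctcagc
Hsp90b1: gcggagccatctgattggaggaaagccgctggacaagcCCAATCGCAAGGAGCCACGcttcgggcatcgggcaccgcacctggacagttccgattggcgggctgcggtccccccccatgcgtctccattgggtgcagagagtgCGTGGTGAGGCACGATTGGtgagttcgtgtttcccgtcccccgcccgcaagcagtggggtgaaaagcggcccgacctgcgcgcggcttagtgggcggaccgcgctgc
Herpud1: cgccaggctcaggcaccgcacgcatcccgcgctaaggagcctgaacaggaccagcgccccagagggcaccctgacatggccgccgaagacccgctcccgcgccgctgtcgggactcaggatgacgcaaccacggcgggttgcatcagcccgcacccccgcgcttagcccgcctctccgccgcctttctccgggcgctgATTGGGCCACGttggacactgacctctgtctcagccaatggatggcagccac

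The *Hspa5* element spans positions -65 to -47 from the start, and *Hsp90b1* holds 2 elements, at -212 to -194 and, in reverse orientation, at -107 to -89. The *Calr* element, also reversed, spans -162 to -144, and the ERSE-II of *Herpud1* spans -52 to -42. An ERSE was found in 39 of 32851 RefSeq windows (0.119%) and an ERSE-II in 12 (0.0365%). The letters TGACGTGG, the core of the UPR element bound by ATF6 and XBP1, were in none of the 9 windows, against 222 of all windows (0.676%). The letters TTGCNTCA, a form of the element bound by ATF4 and its partners, were in the windows of *Herpud1* (2 matches) and *Dnajb9* (1 match) and in 1213 of all windows (3.69%); no match overlapped an ERSE or ERSE-II. A match is only a description of these letters.

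The deposited counts summed to between 27110133 and 40554736 per library, and all 10 UPR genes passed the filter on low counts, with at least 657 counts in every library (*Ddit3* had the fewest) and up to 59336 (*Calr*). Levels are given as CPM, counts scaled to the library's total and by TMM, a factor that corrects for the makeup of each library. *Kdm6a* averaged 2.50 ± 0.671 CPM in female cKO and 4.51 ± 1.37 CPM in female WT libraries, and 1.08 ± 0.382 CPM in male cKO and 2.79 ± 0.705 CPM in male WT libraries (SD, n = 6 each), a fall in both sexes on the log2 scale (-0.85 and -1.36; edgeR adjusted p = 0.0313 and 0.0160) with overlap between the groups in females. Other settings, given in the closing section, ended these calls. The summed level of 10 microglia markers was 5763 to 11107 CPM. Oligodendrocyte markers summed to 2289 to 3649 CPM, astrocyte markers to 402 to 722 CPM, neuron markers to 161 to 340 CPM and monocyte-derived cell markers to 7.05 to 15.7 CPM. Endothelial and fibroblast markers summed to 120 to 599 CPM. Plasma cells express UPR genes strongly. Of the plasma cell and B cell markers, *Mzb1*, *Cd79a* and *Ms4a1* had medians of 0 CPM and *Jchain* of 0.0652 CPM (up to 6.21). *Sdc1* (median 5.20 CPM), *Tnfrsf17* (1.45), *Derl3* (0.878) and *Igkc* (0.533, up to 127) were above 0 in every library, and *Ighm* (118 to 382 CPM) made up most of the list's sum in most libraries. Doubt attaches to 4 libraries. In female WT replicates 2 and 3 *Ddx3y*, on the Y chromosome, stood at 18 and 40, with 0 to 2 in every other female library, and *Tchh*, known from hair follicles, had 3904 and 7365 counts, against 52 to 588. Male cKO replicate 3 held 16 counts of *Xist*, which was at 0 in the other male libraries, and the library labelled female WT replicate 5 had a voom quality weight of 0.162, against 0.563 to 2.46 in the others. *Kdm6a* in that WT library was at 2.167 CPM, below 4 of the 6 female cKO libraries, whereas the other female WT libraries had 4.23 to 6.09 CPM, so it goes against its label; without it the female fall of *Kdm6a* still passed the edgeR test. Without these 4 libraries the test called 0 of the 10 UPR genes in each comparison, as it did with them, and *Herpud1* (0.17) and *Pdia4* (-0.06) were the female log2 differences that moved most.

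Per length of exon, the UPR genes spanned a wide range of levels. *Calr*, a calcium-binding chaperone of glycoproteins, was the most abundant at 388 ± 63.2 RPKM (CPM divided by exon length in kilobases; SD over 24 libraries) and ranked 105 of 16310 genes. *Atf4* (132 ± 20.3 RPKM) and *Hspa5* (129 ± 29.7 RPKM), the gene for the main ER lumen chaperone BiP, came next and did not differ beyond their spread. *Xbp1* (72.2 ± 11.004 RPKM) and *Pdia4* (63.6 ± 13.3 RPKM) followed, then *Hsp90b1* (46.9 ± 9.11 RPKM) and *Herpud1* (44.2 ± 8.06 RPKM), and each pair lay within its spread. *Ddit3* (20.1 ± 5.33 RPKM), *Dnajb9* (15.3 ± 4.02 RPKM) and *Atf6* (7.32 ± 1.17 RPKM, rank 5082) were lowest. The highest library stood above the lowest by between 1.70 times for *Xbp1* and 3.09 times for *Dnajb9*. *Hsp90b1* overlaps a pseudogene transcript on the other strand, 1810014B01Rik, and *Ddit3* overlaps the end of *Mars* on the other strand. How strand was used in counting is not given in the sources used here, so reads of these partners cannot be told apart from those of the 2 genes.

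Loss of *Kdm6a* left all 10 UPR genes without a called change in either sex. In female cKO against female WT libraries 0 of 10 passed edgeR's quasi-likelihood test at an adjusted p under 0.05 (Benjamini-Hochberg), against 1279 of all 16535 genes tested (7.74%). In male cKO against male WT libraries 0 of 10 passed, against 31 of all genes (0.187%). DESeq2 also called 0 in both. At an unadjusted p under 0.05 both tools had 2 of 10 in females, *Atf6* and *Xbp1*, where edgeR had 19.2% of all genes, and 1 in males, *Hspa5*, where edgeR had 4.86%. The female count is near that background share. The ranges of cKO and WT libraries overlapped for all 10 genes in each sex, whereas the groups stood apart for 737 of all genes in females (4.46%) and 95 in males (0.575%).

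**Figure D1:**
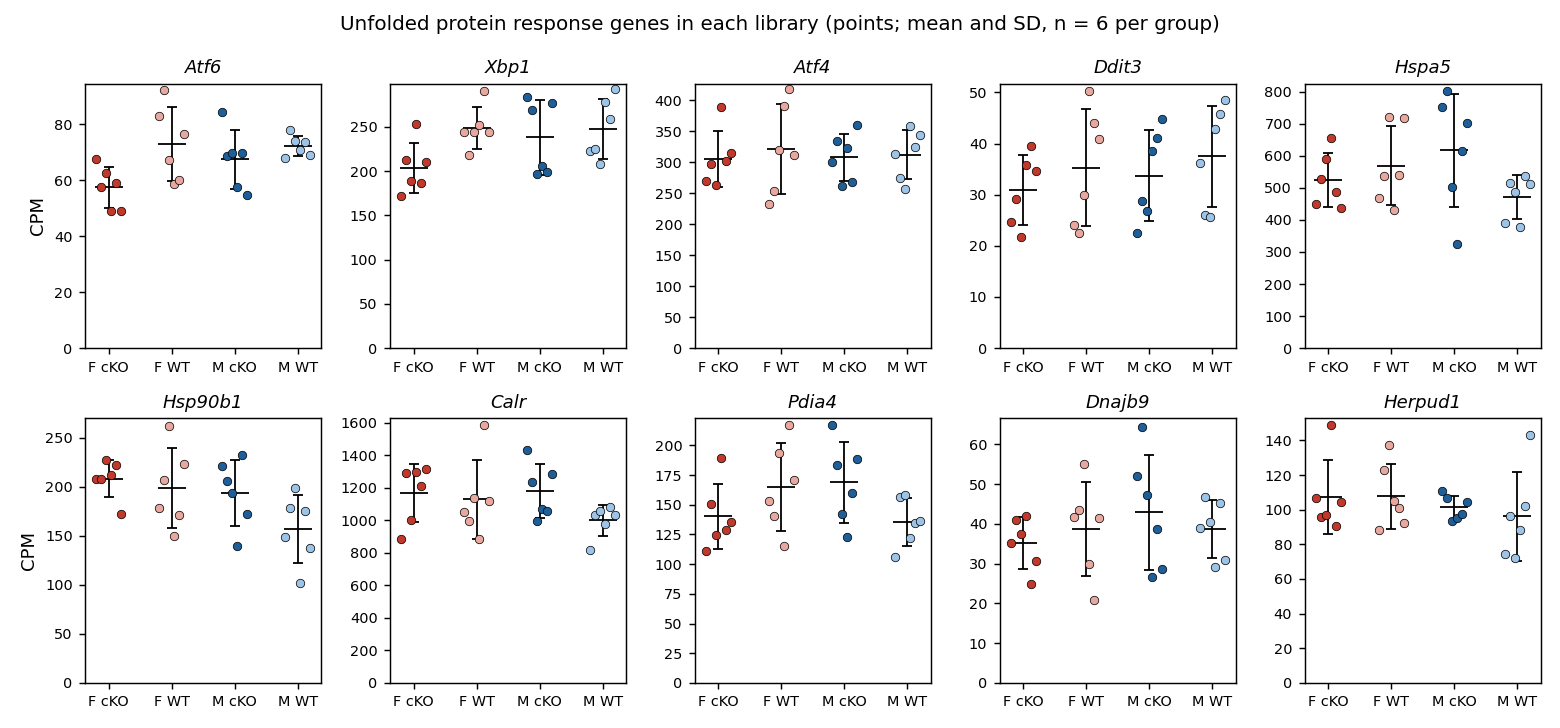
Level of each UPR gene in every library, in CPM on axes that start at 0, by group (F, female; M, male); points are libraries, bars the mean and SD (n = 6 per group). The groups overlap in every panel for cKO against WT, and within the *Atf6* panel the lowest library is a female cKO one (49.0 CPM).

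Among the transcription factors, *Atf6*, the gene of the membrane-bound sensor itself, came nearest to a call. Its lowest, median and highest levels were 49.0, 58.5 and 67.5 CPM in female cKO libraries, against 58.8, 72.0 and 92.4 CPM in female WT libraries. In males they were 54.7, 69.2 and 84.4 CPM in cKO libraries, against 67.9, 72.4 and 77.8 CPM in WT libraries. The female cKO libraries sat in the lower part of the range and 3 of 6 reached into the female WT range, while male cKO libraries lay around the narrow male WT range. The log2 difference was -0.34 (SE 0.12, 95% interval -0.59 to -0.10) in females, with an edgeR adjusted p of 0.0821, and -0.10 (SE 0.12, 95% interval -0.34 to 0.15) in males. The female value passed the threshold when a term for replicates 1 to 3 against 4 to 6 was added (-0.34, edgeR adjusted p = 0.0222), with voom quality weights (-0.40, limma adjusted p = 0.0083), without female WT replicate 4 (-0.40, adjusted p = 0.0437) and without the library labelled female WT replicate 5 (-0.39, adjusted p = 0.0432).

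*Xbp1*, whose spliced mRNA encodes the factor that drives ER expansion, was 172, 199.9 and 253 CPM (lowest, median, highest) in female cKO and 218, 244 and 290.4 CPM in female WT libraries. The male values were 196, 237 and 284 CPM in cKO and 208, 242 and 293 CPM in WT libraries. In females 1 of 6 cKO libraries reached into the WT range, and in males the ranges lay on top of each other. The log2 difference was -0.29 (SE 0.12, 95% interval -0.53 to -0.040) in females (edgeR adjusted p = 0.171) and -0.054 (SE 0.12, 95% interval -0.30 to 0.19) in males.

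*Atf4*, the gene of the factor translated when eIF2alpha is phosphorylated, had 264, 299.7 and 389 CPM (lowest, median, highest) in female cKO and 233, 316 and 418 CPM in female WT libraries, and 262, 311 and 361 CPM in male cKO and 258, 319 and 359 CPM in male WT libraries. *Ddit3*, the CHOP gene downstream of it, had 21.7, 32.0 and 39.6 CPM in female cKO and 22.6, 35.4 and 50.3 CPM in female WT libraries, and 22.5, 33.7 and 44.8 CPM in male cKO and 25.6, 39.5 and 48.6 CPM in male WT libraries. For both genes the 4 groups covered much the same range. The log2 differences of *Atf4* were -0.070 (SE 0.13, 95% interval -0.35 to 0.21) in females and -0.021 (SE 0.13, 95% interval -0.30 to 0.26) in males. Those of *Ddit3* were -0.19 (SE 0.22, 95% interval -0.63 to 0.25) and -0.15 (SE 0.22, 95% interval -0.59 to 0.29), with fold intervals of 0.644 to 1.19 in females and 0.663 to 1.22 in males.

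The ER lumen chaperones lay higher in male cKO than in male WT libraries without passing the test. *Hspa5* had 438, 507 and 656 CPM (lowest, median, highest) in female cKO and 431, 539 and 720.4 CPM in female WT libraries. In males it had 326, 659 and 802 CPM in cKO and 379, 501 and 538 CPM in WT libraries. The male cKO libraries were spread most widely: 4 of 6 stood above every male WT library and 1 stood below all of them. The log2 difference of *Hspa5* was -0.12 (SE 0.17, 95% interval -0.48 to 0.24) in females and 0.39 (SE 0.17, 95% interval 0.031 to 0.75) in males (edgeR adjusted p = 0.909).

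*Pdia4*, a disulfide isomerase that works on folding proteins, had 111, 133 and 189 CPM (lowest, median, highest) in female cKO and 116, 162 and 217 CPM in female WT libraries, and 123, 172 and 217 CPM in male cKO and 106, 135 and 158 CPM in male WT libraries. *Hsp90b1*, the gene of the ER paralog of the cytosolic HSP90 chaperones, had 173, 209.9 and 227 CPM in female cKO and 149.6, 192 and 262 CPM in female WT libraries, and 139.6, 199 and 232 CPM in male cKO and 101, 162 and 199 CPM in male WT libraries. *Calr* had 884, 1251 and 1316 CPM in female cKO and 887, 1083 and 1587 CPM in female WT libraries, and 996, 1151 and 1433 CPM in male cKO and 819, 1034 and 1079.9 CPM in male WT libraries. In males the cKO medians of all 4 chaperones were the higher ones, with overlap in each, and in females the medians of *Hspa5* and *Pdia4* were lower in cKO and those of *Hsp90b1* and *Calr* higher. The male log2 differences were 0.32 (SE 0.16, 95% interval -0.0027 to 0.64) for *Pdia4*, 0.31 (SE 0.15, 95% interval -0.0032 to 0.61) for *Hsp90b1* and 0.24 (SE 0.13, 95% interval -0.030 to 0.51) for *Calr*. The female ones were -0.24 (SE 0.16, 95% interval -0.56 to 0.084), 0.070 (SE 0.15, 95% interval -0.24 to 0.38) and 0.047 (SE 0.13, 95% interval -0.22 to 0.32) for the same genes in that order. None passed (smallest edgeR adjusted p = 0.451).

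The last pair act around BiP and in disposal. *Dnajb9*, a co-chaperone of BiP, had 24.97, 36.3 and 42.1 CPM (lowest, median, highest) in female cKO and 20.9, 41.6 and 55.1 CPM in female WT libraries, and 26.7, 43.0 and 64.4 CPM in male cKO and 29.2, 39.8 and 46.9 CPM in male WT libraries. *Herpud1*, a membrane component of ER-associated degradation, had 90.9, 101 and 149 CPM in female cKO and 88.5, 103 and 137 CPM in female WT libraries, and 93.6, 101 and 111 CPM in male cKO and 72.3, 92.3 and 143 CPM in male WT libraries. Both overlapped throughout. The log2 differences of *Dnajb9* were -0.14 (SE 0.21, 95% interval -0.57 to 0.30) in females and 0.15 (SE 0.21, 95% interval -0.28 to 0.59) in males, and those of *Herpud1* were -0.0065 (SE 0.15, 95% interval -0.31 to 0.30) and 0.076 (SE 0.15, 95% interval -0.23 to 0.38).

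Over the 10 genes, 2 log2 differences were above 0 and 8 below in females (median -0.13, against -0.02 over all genes tested), and 6 were above and 4 below in males (median 0.11, against 0.01). Taken gene by gene, the 95% intervals of the fold lay between 0.644 and 1.30 in females and between 0.663 and 1.68 in males. They give no joint coverage of the 10 genes. For comparison, the median size of a called change among all genes was 0.999 on the log2 scale in females and 1.02 in males, and the smallest was 0.25 in females and 0.60 in males. By group means, *Atf4*, *Xbp1* and *Atf6* shared one order, female WT, male WT, male cKO and female cKO from high to low. *Hspa5* and *Pdia4* shared another, male cKO, female WT, female cKO and male WT. Neighbours in the order of the 4 groups overlapped for all 10 genes.

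**Figure D2:**
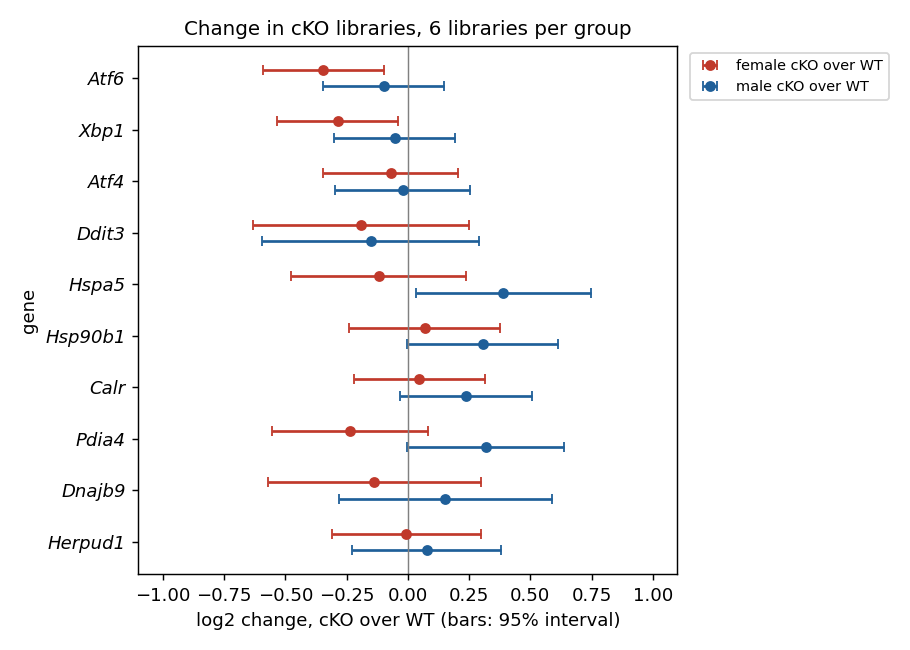
Log2 change of each UPR gene in cKO over WT libraries, female above male in each row; points are the edgeR estimates and bars their 95% intervals (6 libraries per group). All estimates lie between -0.34 and 0.39, and the male points of the 4 lumen chaperones lie to the right of the female ones.

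The effect of the deletion was also compared between the sexes. The female minus male difference of the log2 changes was below 0 for all 10 genes (range -0.55 to -0.04, median -0.23, against -0.03 over all genes), and 0 of 10 passed edgeR's test, against 68 of all genes (0.411%). It was largest for *Pdia4* at -0.55 (SE 0.22, 95% interval -1.01 to -0.10), with an edgeR adjusted p of 0.519, and next for *Hspa5* at -0.51 (SE 0.25, 95% interval -1.01 to -0.0029), with an edgeR adjusted p of 0.698. These 2 were the genes with an unadjusted p under 0.05 by both tools, where edgeR had 7.11% of all genes. The sign turned for *Xbp1*, *Herpud1* and *Dnajb9* within replicates 4 to 6 alone, for *Ddit3* within replicates 1 to 3 alone, for *Atf4* with voom quality weights, for *Herpud1* without the 4 doubted libraries, and for *Ddit3* and *Atf4* when single libraries were left out. Among the gene lists described below, the median of this difference was -0.31 for cytosolic heat shock and -0.24 for other ER chaperones and folding enzymes. It was -0.06 for ER-associated degradation and 0.08 for sensors and activating proteins.

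Averaged over the sexes, 0 of 10 passed, against 1082 of all genes (6.54%), and 1 had an unadjusted p under 0.05 by both tools (17.0% of all genes by edgeR), *Atf6* at -0.22 (SE 0.085, 95% interval -0.40 to -0.048), with an adjusted p of 0.138. That value passed with the term for replicates 1 to 3 against 4 to 6 (-0.23, adjusted p = 0.0378) and with voom quality weights (-0.25, limma adjusted p = 0.0196). Between female WT and male WT libraries 0 of 10 passed, against 6 of all genes (0.0363%), and 9 of 10 log2 differences were above 0 (median 0.10, against 0.03). Of the 9, *Dnajb9* lay at 0.0034 and turned sign with RLE scaling, and *Xbp1*, *Atf4*, *Atf6* and *Herpud1* turned sign under other settings given in the closing section. The largest was that of *Hsp90b1*, 0.34 (SE 0.15, 95% interval 0.031 to 0.65), the only one with an unadjusted p under 0.05 by either tool (3.14% of all genes by edgeR; edgeR adjusted p = 1.0).

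*Ddit3*, *Dnajb9* and *Atf4* differed most between libraries numbered 4 to 6 and 1 to 3 in accession order within each group. These genes differed less in every edgeR comparison of cKO with WT or of the sexes. Each other UPR gene differed more in such a comparison, for example *Hspa5* at -0.09 between the sets and 0.39 in male cKO over WT. The labels name no such sets, although the number in the titles partly follows them: in female cKO and male WT, 2 of the 4 groups, replicates 4 to 6 and 1 to 3 share no title number, and in female WT and male cKO they share 1. The sets were chosen with the data known, so they are described without a test. *Ddit3* was 34.7 to 50.3 CPM (median 41.9) in replicates 4 to 6 and 21.7 to 36.1 CPM (median 25.8) in replicates 1 to 3, and within each of the 4 groups the sets did not overlap. The mean log2 difference of *Ddit3* between the sets was 0.68, with group values of 0.55 in female cKO, 0.83 in female WT, 0.68 in male cKO and 0.66 in male WT libraries. Of all genes tested, 2.58% had a difference at or above that of *Ddit3*.

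*Atf4* was also higher in replicates 4 to 6 in all 4 groups, at a mean log2 difference of 0.28, with a median level of 335 CPM in replicates 4 to 6 and 272 CPM in replicates 1 to 3. *Dnajb9* (-0.50), *Hsp90b1* (-0.23) and *Atf6* (-0.22) were lower there in all 4 groups. *Dnajb9* had a median of 30.3 CPM in replicates 4 to 6 and 42.6 CPM in replicates 1 to 3, and 12.3% of all genes had a difference at or below its own. The other 5 genes differed by between -0.09 and 0.13. The median size of this difference over all genes was 0.28, and 19.7% of genes exceeded 0.5. Median library totals were close, 30625236 counts in replicates 4 to 6 and 30941465 in replicates 1 to 3.

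**Figure D3:**
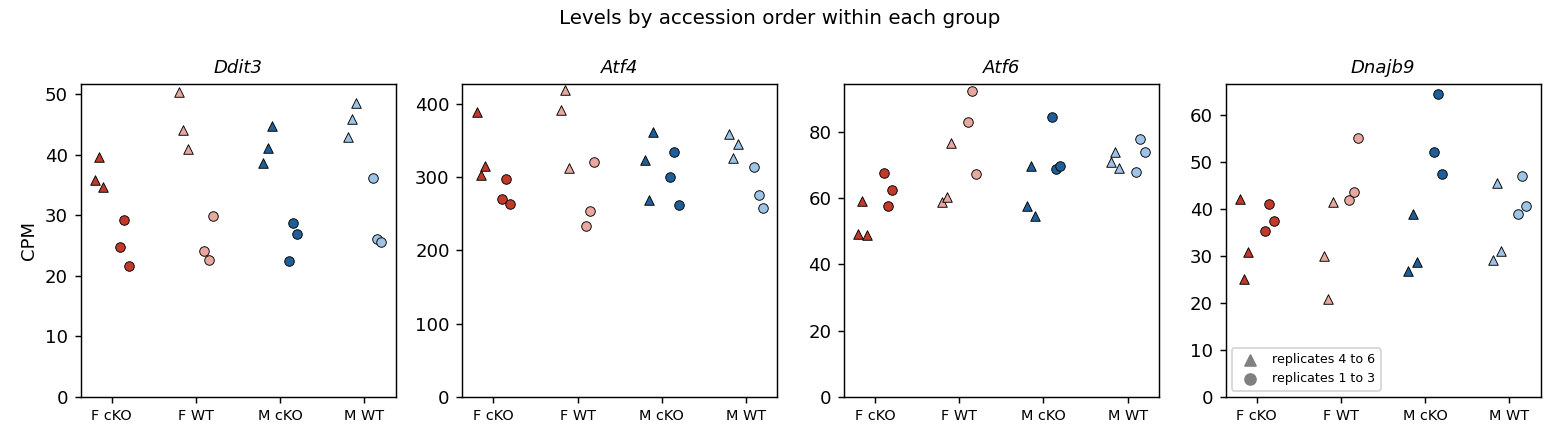
Levels of *Ddit3*, *Atf4*, *Atf6* and *Dnajb9* in CPM, on axes that start at 0, by group, with replicates 4 to 6 as triangles and replicates 1 to 3 as circles (3 libraries each). In every group all *Ddit3* triangles lie above all circles, and the *Dnajb9* and *Atf6* triangles are lower on average.

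Within groups, some of the chaperone genes moved together from library to library. After removal of the group means, Pearson's r was computed for the 45 pairs over 24 libraries, with 100000 permutations within groups and Benjamini-Hochberg adjustment over the pairs. Pairs with *Ddit3* are given within the sets, since its libraries fall into separate clusters. Of the other 36 pairs, 8 positive and 1 negative passed an adjusted p under 0.05 by permutation. Every library shares its depth and scaling across genes, which was not separated from these relations.

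*Calr* and *Pdia4* were the closest pair (r = 0.84, Spearman's rho = 0.82, permutation p = 1e-05, the smallest these permutations can give, and adjusted p = 4.5e-04). Without the 2 libraries farthest from the median r was 0.83, and it was 0.82 within replicates 4 to 6 and 0.94 within replicates 1 to 3. *Hspa5* followed *Pdia4* (r = 0.75, rho = 0.75, adjusted p = 0.0016 by permutation, 0.66 without 2 libraries) and *Hsp90b1* (r = 0.69, rho = 0.69, adjusted p = 0.0028 by permutation, 0.57 without 2 libraries). *Hsp90b1* and *Calr*, although both lumen chaperones, had an r of only 0.10. *Dnajb9* went with *Hsp90b1* (r = 0.67, rho = 0.66, adjusted p = 0.0043 by permutation). *Xbp1* correlated with *Calr* (r = 0.66), *Pdia4* (0.57) and *Herpud1* (0.51; rho = 0.49 with an adjusted permutation p of 0.0501), and with *Atf4* (0.71). By group, of 6 libraries each, r of *Xbp1* was -0.26 with *Pdia4* in male WT and -0.33 with *Herpud1* in female WT libraries. In the other groups both were positive, and r with *Calr* and *Atf4* was positive in every group.

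*Atf6* and *Atf4* ran opposite to each other (r = -0.77, rho = -0.81, adjusted p = 0.0016 by permutation), at -0.87 within replicates 4 to 6 and -0.58 within replicates 1 to 3, and at -0.74 without 2 libraries. *Ddit3* had an r with *Atf4* of 0.23 within replicates 4 to 6 and 0.71 within replicates 1 to 3, and with *Atf6* of -0.25 and -0.81. Within the sets, of 12 libraries each, 0 of 45 pairs passed in replicates 4 to 6 and 1 in replicates 1 to 3. Each group has only 3 libraries in a set, so few permutations within groups are distinct and p has a high floor. After adjustment over 45 pairs almost none could pass, so these counts do not show whether the correlations hold within the sets.

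**Figure D4:**
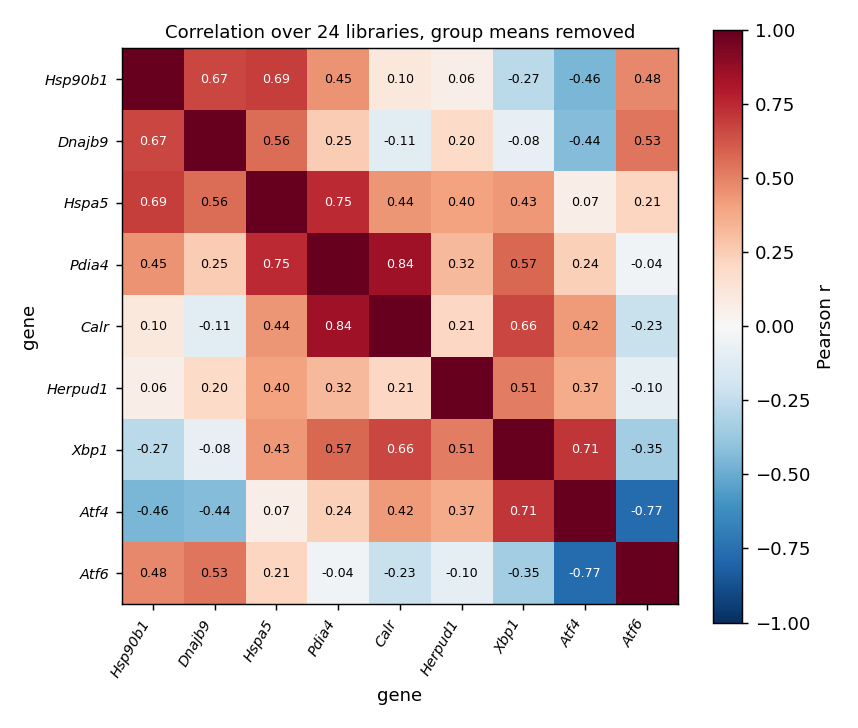
Pearson's r between 9 UPR genes, *Ddit3* apart, over 24 libraries with group means removed, in colour from -1 to 1 and as numbers. *Hspa5*, *Pdia4*, *Calr* and *Xbp1* have r of 0.43 to 0.84 with each other, of which *Hspa5* with *Xbp1* (0.43) and with *Calr* (0.44) did not pass. *Atf4* and *Atf6* stand at -0.77.

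Among 7732 other protein-coding genes with a mean of at least 10 CPM, those most like the mean of *Hspa5*, *Hsp90b1*, *Calr* and *Pdia4* over the 24 libraries were *Pdia6* (r = 0.83, rho = 0.81), *Dnajb11* (r = 0.78, rho = 0.78), *Tmem128* (r = 0.77, rho = 0.67), *Cct8* (r = 0.74, rho = 0.84) and *Lpp* (r = 0.74, rho = 0.71). *Pdia6* encodes another ER disulfide isomerase and *Dnajb11* another BiP co-chaperone. Within replicates 4 to 6 these 5 had r of 0.76 to 0.89 and within replicates 1 to 3 of 0.63 to 0.87. The 5 genes most like *Ddit3* over all libraries were *Bri3*, *Ptms*, *H2afj*, *Tfeb* and *Ubald1*, with r of 0.16 to 0.65 within replicates 4 to 6 and 0.58 to 0.80 within replicates 1 to 3. These are measures of likeness, given with no test.

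Beyond the 10 genes, 116 of 117 genes listed for the pathway were tested. In female cKO against WT libraries 6 fell and 0 rose (5.17%, against the 7.74% of all genes), at a median log2 difference of -0.10 over the lists, and in males 0 passed (median 0.06). At an unadjusted p under 0.05 there were 16 in females and 1 in males, against the 19.2% and 4.86% of all genes. Averaged over the sexes 1 rose and 2 fell (2.59%, against the 6.54% of all genes). *Creb3l2* rose (0.37, edgeR adjusted p = 0.0346), and *Serp1* and *Phgdh* fell. *Creb3l2* encodes an ER-anchored transcription factor related to ATF6.

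**Figure D5:**
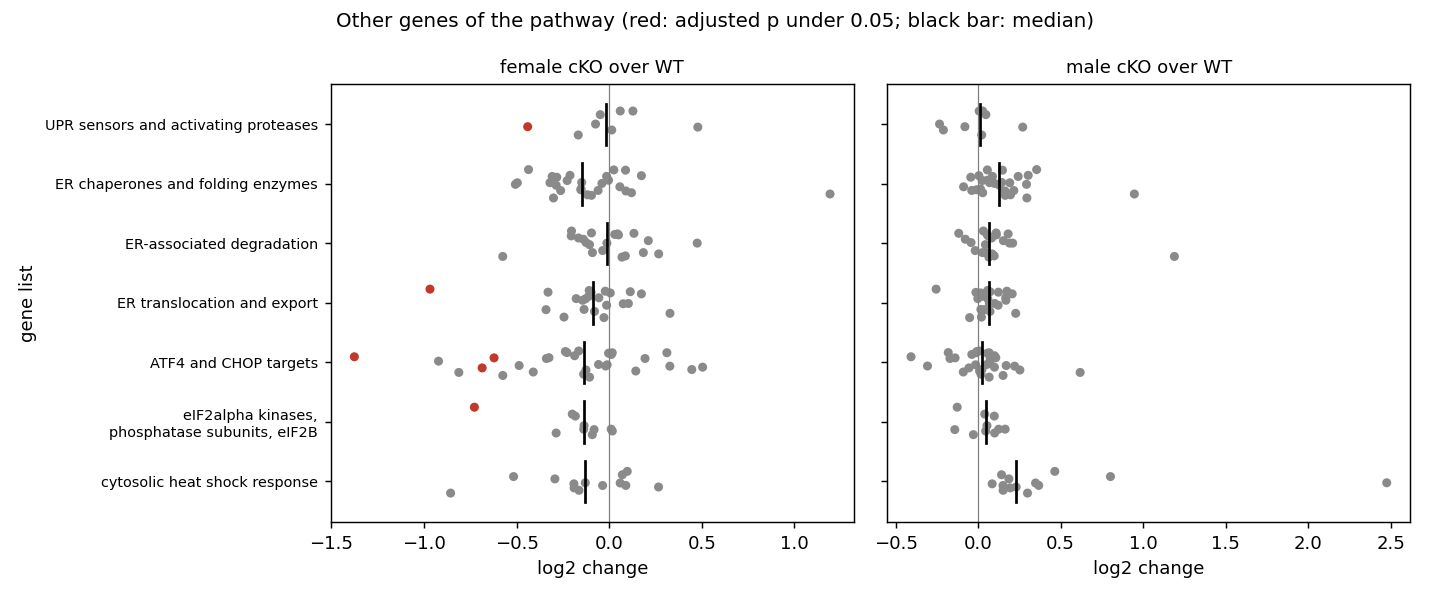
Log2 change in cKO over WT libraries for each gene of 7 lists around the UPR, females on the left and males on the right; points are genes, red ones passed an adjusted p under 0.05, and black bars are list medians. The 6 red points are all female and all below 0, between -1.38 and -0.44.

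*Serp1*, which encodes a small protein that stabilises membrane proteins at the ER translocon, fell most clearly. Its lowest, median and highest levels were 232, 324 and 365 CPM in female cKO libraries, against 450.4, 602 and 781 CPM in female WT libraries, and every female cKO library lay below every female WT library. In males it had 313, 452 and 779 CPM in cKO and 434, 584 and 762 CPM in WT libraries, which overlapped. The log2 difference was -0.97 in females (SE 0.19, edgeR adjusted p = 0.0016) and -0.25 in males (SE 0.19, adjusted p = 1.0), and the difference between the sexes did not pass (-0.71, adjusted p = 0.477). Without the 4 doubted libraries the female value was -0.88 (edgeR adjusted p = 0.0220), and with the mean of the monocyte-derived cell markers as a covariate it was -0.47 (adjusted p = 0.455). Those markers summed to 7.94 to 12.2 CPM in female cKO and 10.04 to 13.5 CPM in female WT libraries, with *Chil3* at 0 in female cKO. The covariate was not this sum but the mean log2 CPM of the 6 tested members, which weighs each of them alike. Their median log2 difference was -1.13 in females, with 2 lower and the rest not called, and -0.68 in males, with 0 called. The part of these markers in the fall of *Serp1* was not tested further. *Serp1* overlaps *Eif2a* on the other strand by a short stretch. It was the only 1 of 22 tested genes of ER translocation and export to pass in females (4.55%, against the 7.74% of all genes).

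Of 29 ATF4 and CHOP targets, 3 fell in females and 0 rose (10.3%, near the 7.74% of all genes; median -0.14). Other genes of amino acid metabolism and transport on the list did not pass and lay on both sides of 0. Among them were *Asns* (0.33), *Slc7a11* (0.45), *Psph* (-0.41) and *Shmt2* (-0.49). *Phgdh*, the first enzyme of serine synthesis, had 2.97, 3.89 and 4.95 CPM (lowest, median, highest) in female cKO and 4.70, 7.58 and 26.4 CPM in female WT libraries (log2 -1.38, SE 0.34, edgeR adjusted p = 0.0101). *Psat1*, the next enzyme of that path, had 92.9, 121 and 131 CPM in female cKO and 109, 157 and 343 CPM in female WT libraries (-0.69, SE 0.20, adjusted p = 0.0353). *Gars*, the glycyl-tRNA synthetase gene, had 33.3, 37.5 and 47.0 CPM in female cKO and 38.1, 50.9 and 118 CPM in female WT libraries (-0.62, SE 0.19, adjusted p = 0.0455). The top value of all 3 belonged to the library labelled female WT replicate 5. Without it the differences were -0.80 for *Phgdh* (adjusted p = 0.0594), -0.42 for *Psat1* (0.156) and -0.30 for *Gars* (0.193), so none of the 3 calls held. Without all 4 doubted libraries they were -1.02 (0.0211), -0.60 (0.0461) and -0.28 (0.365) for the same genes in that order. With the monocyte-derived cell covariate they were -0.96 (0.523), -0.39 (0.696) and -0.35 (0.713), and a random effect for the number in the titles gave -1.17 (limma adjusted p = 0.0779), -0.61 (0.162) and -0.56 (0.131), again in that order. Other single libraries also ended calls, though not that of *Phgdh*. *Psat1* missed the threshold without female WT 1 or female cKO 1, 3, 4 or 5 (edgeR adjusted p 0.0554 to 0.0884). *Gars* missed it without female WT 3 or female cKO 1, 2, 3, 5 or 6 (0.0554 to 0.105). It also missed it without most single male libraries (0.0519 to 0.0554).

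Of 8 sensors and activating proteins, *Rtcb*, the ligase that joins the ends of *Xbp1* mRNA after IRE1 cleavage, fell in females, with 232, 278 and 308 CPM in female cKO and 263, 364 and 487 CPM in female WT libraries (log2 -0.44, SE 0.12, edgeR adjusted p = 0.0256). The sensor genes *Ern1* for IRE1 (-0.07) and *Eif2ak3* for PERK (0.06) did not pass. *Rtcb* was the only 1 of the 8 called (12.5%, against the 7.74% of all genes). Of 10 genes for eIF2alpha kinases, phosphatase subunits and eIF2B, *Eif2ak2*, the kinase activated by double-stranded RNA, fell, with 14.8, 20.8 and 23.2 CPM in female cKO and 25.6, 29.2 and 49.7 CPM in female WT libraries, which stood apart (-0.73, SE 0.21, adjusted p = 0.0343). *Eif2ak2* was the only 1 of these 10 called (10%, against the 7.74% of all genes). With the monocyte-derived cell covariate *Eif2ak2* was at 0.013 (edgeR adjusted p = 0.991) and *Rtcb* at -0.17 (0.762), while the random effect for title number gave -0.71 (limma adjusted p = 0.123) and -0.42 (0.0946). Both calls were lost when female WT replicate 3 or 5 was left out (adjusted p = 0.0676 and 0.0792 for *Rtcb*, 0.106 and 0.0837 for *Eif2ak2*), and without all 4 doubted libraries (-0.35, edgeR adjusted p = 0.122, for *Rtcb* and -0.44, 0.434, for *Eif2ak2*). *Rtcb* also missed without female cKO 1 or 3 (edgeR adjusted p = 0.0718 and 0.0740), and *Eif2ak2* without female cKO 2, 4, 5 or 6 (0.0554 to 0.0855). With the female groups alone *Rtcb* missed (0.103) and *Eif2ak2* passed (0.0260).

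None of 27 other ER chaperones and folding enzymes passed edgeR's test (median -0.15 in females and 0.13 in males), and 2 in females and 0 in males had an unadjusted p under 0.05, where all genes had 19.2% and 4.86%. The 2 with the smallest p were *Fkbp11* and *Manf*, a secreted ER stress protein. *Fkbp11*, a low-level gene of the secretory path, had 0.908 ± 0.295 CPM in female cKO and 0.389 ± 0.420 CPM in female WT libraries (SD, n = 6 each; edgeR adjusted p = 0.180). *Manf* had 96.6 ± 27.4 CPM in female cKO and 137 ± 74.2 CPM in female WT libraries (adjusted p = 0.252). None of 21 genes of ER-associated degradation passed either (median -0.01 in females and 0.07 in males), with 3 in females and 1 in males at an unadjusted p under 0.05, against the same shares of all genes. Among them *Derl3*, also one of the plasma cell markers, had 1.72 ± 1.26 CPM in male cKO and 0.747 ± 0.222 CPM in male WT libraries (log2 1.19, edgeR adjusted p = 0.302).

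The cytosolic heat shock list, kept apart as a neighbouring stress response, had 0 of 13 called by edgeR in either sex (median -0.13 in females and 0.23 in males), with 1 in females and 4 in males at an unadjusted p under 0.05, against 19.2% and 4.86% of all genes. *Hsp90ab1*, a cytosolic HSP90, had 1283 ± 183 CPM in male cKO and 995 ± 84.1 CPM in male WT libraries (SD, n = 6 each; log2 0.37, edgeR adjusted p = 0.468), and *Hspa1b*, an inducible HSP70, had 3.23 ± 3.47 CPM in male cKO and 0.578 ± 0.410 CPM in male WT libraries (log2 2.48, adjusted p = 0.312). Averaged over the sexes 1 of 13 passed (7.69%, near the 6.54% of all genes). This was *Bag3*, a co-chaperone of HSP70, which rose (0.25, edgeR adjusted p = 0.0242).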

How the data were processed

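The authors deposited 1 table of whole-number counts per Ensembl gene for 24 libraries, with no normalization. Of its 39017 identifiers 37693 (96.6%) matched GENCODE M21. The labels' protocols name a Direct-zol kit for RNA and a stranded KAPA kit with mRNA enrichment for the libraries. The tools named in the submitters' processing notes are bcl2fastq 2.17, Trimmomatic and FastQC, and the build is mm10. Which aligner, counter, strand setting and annotation the authors used is not given in the sources used here. Even numbers made up 71.8% of the values between 1 and 10 but 51.7% of those between 1000 and 10000, so counting error may be understated.

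All 24 libraries entered 1 fit of 4 group means in R 4.3.3 with edgeR 4.0.16 (TMM, filterByExpr, quasi-likelihood test, Benjamini-Hochberg adjustment over 16535 genes, called under 0.05). On simulated data, with 50 changed genes per fold size, it recovered 38% of 1.5-fold changes in the female comparison and 36% in the male one. For 2-fold changes it recovered 84% and 58%, and for 3-fold ones 92% and 98%. A change of 1.5-fold or less could thus go uncalled. Levels per length used the union of exons. Correlations used log2 CPM with a prior count of 0.5 and scipy 1.17.1. Alternatives were DESeq2 1.42.0, RLE factors, other filters, the compared groups alone, voom quality weights or title number as a random effect (limma 3.58.1), a term for or fits within replicates 1 to 3 and 4 to 6, counts divided by 2, marker covariates, and libraries left out. Replicates are numbered in accession order.

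The 10 genes, the other lists, the 4 doubted libraries and the tests were chosen with earlier results of these data known. From each other list up to 4 called genes were named, or the 2 with the smallest p where none was called, and the 5 genes most like each pattern. *Creb3l2*, *Bag3*, *Ern1*, *Eif2ak3*, *Asns*, *Slc7a11*, *Psph* and *Shmt2* fell outside this rule and were chosen after their values were seen. A gene that this rule names among those of ER-associated degradation is not reported here.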

Additional observations from a re-analysis of the deposited data

Results flagged for a closer look

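Among 40 sets of 6 libraries (10 genes in 4 groups), 3 held a library far from the rest by Dixon's test at the 95% level; chance alone flags about 1 in 20 such sets. *Herpud1* stood at 148.8 CPM in female cKO replicate 4, against 90.9 to 107 CPM in the other 5 female cKO libraries. *Hsp90b1* stood at 173 CPM in female cKO replicate 6, against 208 to 227 CPM in the other 5. *Calr* stood at 1587 CPM in the library labelled female WT replicate 5, against 887 to 1137 CPM in the other 5 female WT libraries. That library is the one with the lowest voom quality weight, and without it the female log2 difference of *Calr* was 0.17, against 0.05 with it.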

How the results depend on the processing

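For the 10 UPR genes, other settings than the one reported gave 680 log2 values over the 5 comparisons, of which 53 turned sign, all of them not called in either setting, and 4 passed the threshold, all *Atf6* with the values given above. Leaving out single libraries turned 59 of 1200 and brought 2 past it, again *Atf6*. The cause of these changes was not tested. Fits of the compared groups alone give no value for the average over sexes or the sex difference. No paired analysis was possible because the labels give no replicate numbers and those used here follow accession order; the number in the titles, shared by several libraries of 1 genotype, was used as a random effect (consensus correlation 0.216), which is no replicate block.

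The number of UPR genes called was 1 in place of 0 in females and in the average over sexes with the term for the sets and with voom quality weights, and 0 to 1 in females without single libraries. Of the other pathway genes, 6 were called in females, against 3 with the female groups alone, 0 with the monocyte-derived cell covariate, 1 within replicates 1 to 3, 2 within replicates 4 to 6, 10 with the term for the sets, 1 with title number, 3 without the 4 doubted libraries (female WT 2, 3 and 5 and male cKO 3) and 2 to 7 without single libraries. All genes called in females numbered 1279, against 351 with the monocyte-derived cell covariate, 458 within replicates 1 to 3, 658 within replicates 4 to 6, 803 with title number and 980 to 1619 without single libraries. In males they numbered 31, against 79 by DESeq2, 19 with that covariate, 0 within either set, 2 with title number, 90 with voom quality weights, 48 without the doubted libraries and 15 to 63 without single libraries. In the average over sexes they numbered 1082, against 357 with that covariate, 330 with title number and 1541 with voom quality weights. Of 45 pairs 12 correlations passed, against 0 within replicates 4 to 6 and 1 within replicates 1 to 3. A set holds 12 libraries, which give less power than 24, so these counts do not show whether the correlations hold there.

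The fall of *Kdm6a* kept its sign but missed the threshold in females with the groups alone (-0.84, edgeR adjusted p = 0.0666), the covariate (-0.74, 0.419), replicates 1 to 3 (-1.01, 0.0914) or 4 to 6 (-0.62, 0.375) alone, title number (-0.79, 0.0993), without the doubted libraries (-0.81, 0.0919) and without any of female WT 2 and 3 and female cKO 2, 3, 5 and 6 (adjusted p 0.0565 to 0.0849). In males it missed with the covariate (-1.31, 0.0807), in either set (-1.38, 0.156, and -1.353, 0.990), with title number (-1.46, 0.328) and without male WT 2 or male cKO 2 or 6. *Eif2ak2* in females was 0.013 with the covariate.

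Log2 values that turned sign were as follows. With title number as a random effect these were *Ddit3* 0.030 and *Atf4* 0.082 and *Dnajb9* -0.013 in males, *Atf4* 0.014 and *Dnajb9* -0.058 in the average over sexes, and *Ddit3* 0.023 and *Atf6* -0.073 and *Dnajb9* -0.13 in female WT against male WT. Within replicates 1 to 3 alone these were *Atf4* 0.041 and *Hsp90b1* -0.0096 and *Calr* -0.0017 in females, *Atf4* 0.086 and *Xbp1* 0.20 and *Atf6* 0.023 in males, *Atf4* 0.063 in the average over sexes, *Ddit3* 0.14 in the sex difference, and *Atf4* -0.067 in female WT against male WT. With the monocyte-derived cell covariate these were *Dnajb9* 0.044 in females, *Herpud1* -0.037 in the average over sexes, and *Ddit3* 0.037 and *Dnajb9* -0.036 in female WT against male WT. With voom quality weights these were *Atf4* 0.0085 and *Herpud1* 0.036 in females, *Dnajb9* -0.062 in the average over sexes, *Atf4* 0.021 in the sex difference, and *Ddit3* 0.027 and *Dnajb9* -0.016 in female WT against male WT. Without the 4 doubted libraries these were *Herpud1* 0.17 in females, *Atf4* 0.022 in males, *Herpud1* 0.070 in the sex difference, and *Ddit3* 0.031 and *Atf4* -0.0091 and *Xbp1* -0.013 and *Herpud1* -0.019 and *Dnajb9* -0.044 in female WT against male WT. Within replicates 4 to 6 alone these were *Herpud1* 0.22 and *Dnajb9* 0.10 in females, *Herpud1* -0.17 and *Dnajb9* -0.17 in males, *Dnajb9* -0.038 in the average over sexes, *Xbp1* 0.027 and *Herpud1* 0.39 and *Dnajb9* 0.27 in the sex difference, and *Xbp1* -0.088 and *Atf6* -0.14 and *Herpud1* -0.17 and *Dnajb9* -0.21 in female WT against male WT. With no low-count filter these were *Xbp1* -0.0018 and *Dnajb9* -0.0045 in female WT against male WT. With the plasma cell and B cell covariate these were *Dnajb9* -0.066 in the average over sexes. With DESeq2 these were *Dnajb9* -3.7e-05 in female WT against male WT. With RLE size factors these were *Dnajb9* -0.00022 in female WT against male WT. With the term for the sets these were *Dnajb9* -0.023 in female WT against male WT. Without single libraries the values ranged over *Ddit3* -0.14 to 0.088 in the sex difference, *Ddit3* -0.21 to 0.010 in female WT against male WT, *Atf4* -0.15 to 0.019 in females, *Atf4* -0.070 to 0.028 in males, *Atf4* -0.13 to 0.040 in the sex difference, *Atf4* -0.049 to 0.12 in female WT against male WT, *Xbp1* -0.042 to 0.061 in female WT against male WT. They ranged over *Atf6* -0.068 to 0.070 in female WT against male WT, *Herpud1* -0.12 to 0.074 in females, *Herpud1* -0.023 to 0.11 in the average over sexes, *Dnajb9* -0.067 to 0.073 in the average over sexes, *Dnajb9* -0.13 to 0.13 in female WT against male WT, *Calr* -0.013 to 0.17 in females, *Pdia4* -0.012 to 0.088 in the average over sexes.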
